A study of Arabidopsis thaliana with 6 samples.

Results

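CYP97B3 is one of the 3 Arabidopsis genes of the CYP97 family of cytochrome P450 enzymes, and its transcript was higher in seedlings that carry a mutation in the transcription factor gene ATHB1. It is described here with 9 genes of carotenoid synthesis, together 10 genes of the 33602 in the count files. The members were named by locus. CYP97B3 was selected on its read counts, which differed between the genotypes in these libraries, and the other 9 were added for their place in the pathway, with earlier results of these data known. RNA came from whole seedlings (root, hypocotyl and cotyledon) of Arabidopsis thaliana Columbia, 3 wild-type libraries and 3 of athb1-1, which the labels call biological triplicates without saying how they were grown apart. The p-values therefore measure the spread between these samples. The labels do not say what kind of lesion athb1-1 is, and no second allele or rescued line was sequenced in the libraries analysed here. All seedlings were 4 days old, had been stratified for 3 days and grew under short days (8 h light, 16 h dark). They were harvested 1 h before the night ended. For all libraries the labels also give 72 h after stratification, light of 120 µmol per square metre per second and 22 to 24 °C.

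Carotenoids are plastid pigments that collect light, protect the photosystems from excess light and serve as precursors of abscisic acid (ABA) and strigolactones. Phytoene synthase (PSY) commits isoprenoid precursors to the pathway, and desaturation and isomerisation lead to red lycopene. Lycopene is then cyclised, either to beta-rings at both ends or to 1 beta-ring and 1 epsilon-ring. Hydroxylation of these rings gives the xanthophylls, among them lutein, the main carotenoid of leaves, and zeaxanthin. CYP97A3 and CYP97C1 of the CYP97 family and a pair of non-haem di-iron enzymes, BCH1 and BCH2, add the hydroxyl groups. CYP97B3 is listed with them as a P450 of the same family, and what its enzyme does was not measured here.

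The sequence that precedes CYP97B3 is shown because the gene's level differed in a mutant of a DNA-binding protein, and that of BCH2 because it shares a motif with it. Each is the 250 bases before the annotated transcript start, 5′ to 3′, from the RefSeq genome TAIR10.1, with CACGTG, the G-box bound by many bHLH and bZIP factors, in capitals. CYP97B3 (chr4:8633119-8633368, minus strand) and BCH2 (chr5:21337127-21337376, minus strand) read as follows.
CYP97B3: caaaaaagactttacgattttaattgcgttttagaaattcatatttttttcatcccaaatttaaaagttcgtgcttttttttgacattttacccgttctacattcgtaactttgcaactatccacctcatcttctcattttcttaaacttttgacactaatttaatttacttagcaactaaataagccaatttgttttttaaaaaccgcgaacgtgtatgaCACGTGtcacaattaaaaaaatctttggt
BCH2: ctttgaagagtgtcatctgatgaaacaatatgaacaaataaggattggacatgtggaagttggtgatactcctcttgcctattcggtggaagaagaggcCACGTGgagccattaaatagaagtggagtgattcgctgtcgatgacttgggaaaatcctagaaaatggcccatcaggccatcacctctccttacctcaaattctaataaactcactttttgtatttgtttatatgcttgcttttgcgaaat
The G-box begins 29 bases before the start of CYP97B3 and 151 bases before that of BCH2. None of the other 8 members had CACGTG in this window, and 5.83% of 32834 promoters of the same length did. CAATNATTG, with any base at N, takes in the palindromic site of HD-Zip class I factors such as ATHB1 but is wider than it. It was in none of the 10 windows and in 0.905% of all promoters, which is not the share of the class I site alone. Both motifs read the same on either strand and share no overlap here. A match or its absence describes these letters only, and the motif's use was not measured.

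The depth was 11036314 to 11974342 gene counts in wild-type and 12841376 to 13153615 in athb1-1. Counts scaled to library size (CPM) below are scaled by edgeR's TMM factors. Transcript of ATHB1 itself, from summed exon bins, was at 441, 530 and 450 CPM in wild-type and at 10.2, 9.37 and 10.5 CPM in athb1-1, so each library matched its label. The gene count of ATHB1 is 0 in all libraries, so this check rests on the exon files. Its locus overlaps another gene model, and whether the overlap accounts for the 0 was not tested. Markers of cotyledon and leaf (5 of 5, summed 43868 to 59934 CPM) and of root (6 of 6, 1882 to 2283 CPM) were present in every library. No markers of hypocotyl were examined. Wild-type replicate 2 stood apart by its seed transcripts. The 8 seed storage and oleosin genes summed to 46.8 CPM there and to 1.01 to 7.43 CPM in the other 5 libraries, with CRU3 and SESA1 to SESA4 at 0 in at least 1 library. Log2 fold changes that moved by over 1.5 times or changed sign without that library are also given without it.

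CYP97B3 (AT4G15110; chromosome 4, 8629647 to 8633118, minus strand) was read 82, 58 and 112 times in wild-type replicates 1, 2 and 3, and 499, 422 and 464 times in athb1-1 replicates 1, 2 and 3. Scaled for library size, the wild-type values were 7.62, 5.28 and 9.17 CPM and those of athb1-1 were 36.2, 32.9 and 35.9 CPM. The genotypes did not overlap, and the lowest mutant library was above the highest wild-type library by more than the whole spread within either genotype. The means were 7.36 ± 1.96 and 35.0 ± 1.80 CPM (SD, n = 3), a fitted fold of 4.73 or a log2 fold change of 2.24 (SE 0.16). No p-value is given, because this difference chose the gene. Over all 18626 genes tested, edgeR's quasi-likelihood test called 10 (0.0537%) at a Benjamini-Hochberg adjusted p under 0.05. Of these, 4 (0.0215%) were higher in athb1-1 and 6 (0.0322%) lower. CYP97B3 is among the 4, which restates the difference that chose it and adds no support. Wild-type replicate 2, the library with seed transcripts, was the lowest, and without it the log2 fold change was 2.05 (SE 0.12). The authors' deposited table gives 2.24, with its sign turned to athb1-1 over wild-type. In whole seedlings, more cells that express the gene and more RNA per cell cannot be told apart.

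**Figure D1:**
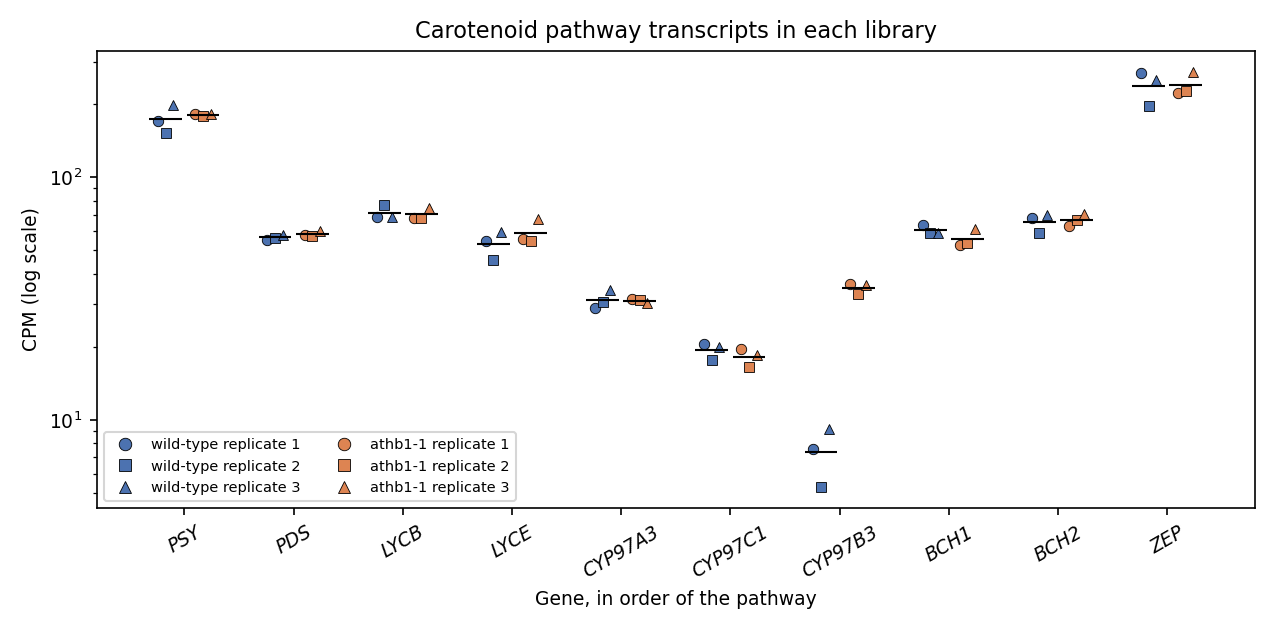
CPM (vertical axis, log scale) of the 10 members (horizontal axis, in pathway order) in each of the 3 wild-type (blue) and 3 athb1-1 (orange) libraries, with horizontal lines at the genotype means. The wild-type points of CYP97B3 lie at 5.28 to 9.17 CPM and its athb1-1 points at 32.9 to 36.2 CPM, while the libraries of the other 9 genes overlap between genotypes.

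The higher level covered the whole transcript. CYP97B3 has 14 exons, and each was read as a separate bin in the exon files, where a read that spans exons counts in each. All 14 exons were higher in every athb1-1 library than in every wild-type library, which restates the gene's own difference. Summed over exons, wild-type had 9.93 ± 2.24 CPM and athb1-1 had 47.4 ± 3.21 CPM (SD, n = 3), which differ 4.77-fold.

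Single exons had few reads in wild-type. Exon 2 (8632423 to 8632594, 172 bases) was read 3, 5 and 3 times in wild-type and 49, 38 and 45 times in athb1-1, which differ 10.3-fold (95% counting interval 5.58 to 21.2). Exon 7 (8631382 to 8631429, 48 bases) was read 6, 9 and 8 times against 28, 23 and 26 times, 2.88-fold apart (1.79 to 4.80). These were the highest and the lowest ratio of the 14. Exon 14 (8629647 to 8630140), the last and longest at 494 bases, was read 23, 14 and 28 times in wild-type and 105, 108 and 82 times in athb1-1, 3.90-fold apart (2.97 to 5.18). The intervals cover counting error only.

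The share that each exon takes of the reads of its gene is a separate question from the gene's total. A change in that share was tested over all genes with edgeR's diffSpliceDGE, which called 1 of 12808 genes (0.00781%), not a member. CYP97B3 had an unadjusted Simes p of 0.136 (adjusted p 1.00), place 279 of the 12808 genes in order of rising p. BCH1 had an unadjusted Simes p of 0.135, place 272, and was not called either. By the single-bin test of diffSpliceDGE, exon 2 of CYP97B3 had a share higher by 0.74 on the log2 scale (unadjusted p 0.00972, adjusted p 1.00 over 78017 bins). Of the 10 members, 0 were called for exon usage and 0 had an unadjusted Simes p under 0.05, against 0.617% of all genes. The bins of CYP97C1 could not be read alone, since its locus is merged there with the overlapping gene AT3G53140.

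**Figure D2:**
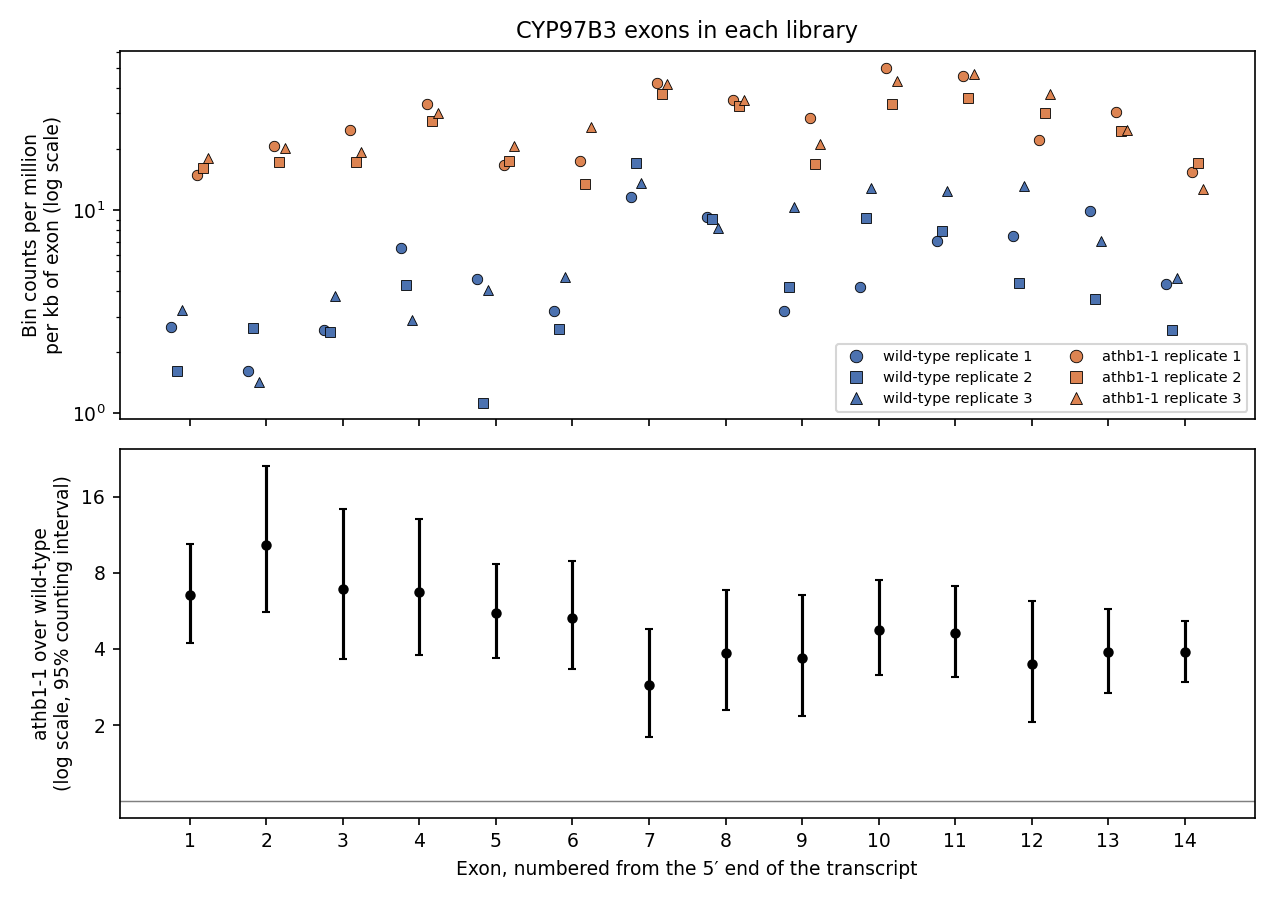
Top, bin CPM per kb of exon (log scale) for the 14 exons of CYP97B3, numbered from the 5′ end, in each library. Bottom, ratio of summed athb1-1 to summed wild-type counts, scaled for library size (log scale, bars are 95% counting intervals). Ratios run from 2.88 at exon 7 to 10.3 at exon 2, and describe the difference on which the gene was selected.

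CYP97A3 and CYP97C1, the other members of the family, had overlapping levels in the genotypes. CYP97A3 (AT1G31800; chromosome 1, 11396402 to 11399714), which hydroxylates the beta-ring on the way to lutein, was at 28.8, 30.7 and 34.3 CPM in wild-type and at 31.4, 31.3 and 30.2 CPM in athb1-1. Its libraries overlapped, and its log2 fold change was −0.01 (SE 0.10, edgeR adjusted p 0.998, 95% interval −0.23 to 0.20), or −0.04 without wild-type replicate 2. CYP97C1 (AT3G53130; chromosome 3, 19692757 to 19697542), which hydroxylates the epsilon-ring of lutein, was at 20.6, 17.7 and 19.9 CPM and at 19.6, 16.5 and 18.6 CPM. It too overlapped, with a log2 fold change of −0.09 (SE 0.11, edgeR adjusted p 0.973, 95% interval −0.34 to 0.15). Without wild-type replicate 2 it was −0.16, and without athb1-1 replicate 2 it was −0.03. The count of CYP97C1 is uncertain, because AT3G53140 overlaps it by 1900 bases on the same strand and has 0 counts in all 6 libraries.

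The non-haem hydroxylases form zeaxanthin from beta-carotene. BCH1 (AT4G25700; chromosome 4, 13093869 to 13096049) was at 63.8, 59.2 and 58.9 CPM in wild-type and at 52.5, 53.8 and 61.0 CPM in athb1-1, with 2 mutant libraries below all of wild-type and 1 within its range (log2 fold change −0.12, SE 0.10, edgeR adjusted p 0.967). BCH2 (AT5G52570; chromosome 5, 21334793 to 21337126) was at 68.2, 58.7 and 70.0 CPM and at 63.1, 66.7 and 70.6 CPM, with overlapping libraries (log2 fold change 0.03, SE 0.10, edgeR adjusted p 0.992). Without wild-type replicate 2, the lowest library of BCH2, the value was −0.06.

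Levels of different genes are compared per length, as RPKM (CPM per kb of the longest transcript in TAIR10.1). CYP97B3 was at 3.56, 2.46 and 4.28 RPKM in wild-type and at 16.9, 15.4 and 16.7 RPKM in athb1-1. It was the lowest of the 10 members in wild-type, below CYP97C1 (5.79 ± 0.448 RPKM), and the eighth in athb1-1, above CYP97A3 (14.6 to 15.2 RPKM) and CYP97C1 (5.43 ± 0.474 RPKM). None of these neighbours in the order overlapped over the libraries of the genotype, but CYP97B3 and CYP97A3 were close in athb1-1 (lowest 15.4 against highest 15.2 RPKM). Of the summed RPKM of the CYP97 family, CYP97B3 took 15.1, 10.9 and 16.0% in wild-type and 44.6, 43.4 and 45.4% in athb1-1. Of the summed RPKM of the family with BCH1 and BCH2, it took 3.08 ± 0.654% and 13.5 ± 0.767% (SD, n = 3). So BCH1 and BCH2 held most of this sum in both genotypes, at 34.4 ± 1.57 and 51.7 ± 4.80 RPKM in wild-type.

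**Figure D3:**
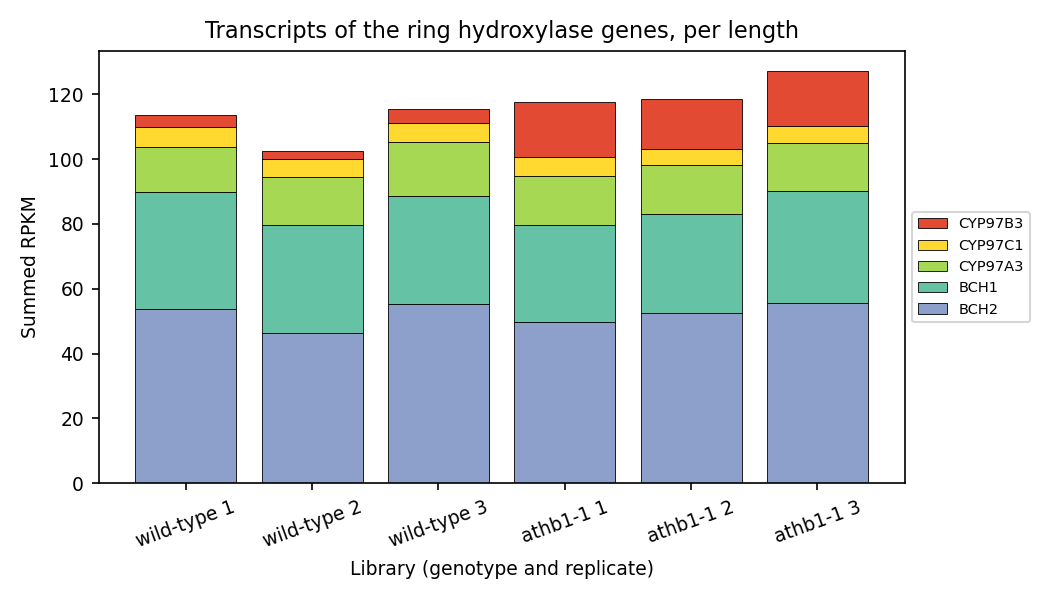
RPKM of BCH2, BCH1, CYP97A3, CYP97C1 and CYP97B3 (vertical axis, stacked) in each of the 6 libraries (horizontal axis). The CYP97B3 part is 2.46 to 4.28 RPKM in wild-type and 15.4 to 16.9 RPKM in athb1-1, beside BCH2 parts of 46.2 to 55.6 RPKM.

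The order of the other members ran the same in both genotypes. ZEP was highest (92.0 ± 14.6 RPKM in wild-type and 93.0 ± 10.8 in athb1-1), followed by PSY (82.8 ± 11.4 and 86.3 ± 0.961), and these overlapped. BCH2 came next, then LYCB (36.3 ± 2.39 and 35.8 ± 2.12) and BCH1, which overlapped LYCB in both genotypes and LYCE in athb1-1. LYCE (25.0 ± 3.32 and 27.8 ± 3.22) and PDS (24.7 ± 0.667 and 25.5 ± 0.554) overlapped each other. CYP97A3 was at 15.1 ± 1.35 RPKM in wild-type, below all libraries of PDS. If reads in the overlap with AT3G53140 were not counted, the level of CYP97C1 is understated and the family share of CYP97B3 overstated. With bases shared with other genes left out of the lengths, CYP97C1 was at 9.53 RPKM in wild-type and 8.93 RPKM in athb1-1. The order of the 10 members by mean was the same. By these lengths CYP97A3 averaged 15.8 RPKM in athb1-1, above the lowest CYP97B3 library (15.4 RPKM), so CYP97A3 and CYP97B3 overlapped there.

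PSY and PDS, which act before the rings are formed, had levels that overlapped between the genotypes. PSY (AT5G17230; chromosome 5, 5659554 to 5662997), the enzyme that controls entry into the pathway, was at 171, 152 and 199 CPM in wild-type and at 182, 179 and 183 CPM in athb1-1. Its spread was wide in wild-type and narrow in athb1-1 (SD 23.9 and 2.02), and the log2 fold change was 0.06 (SE 0.11, edgeR adjusted p 0.978), or −0.04 without wild-type replicate 2. PDS (AT4G14210; chromosome 4, 8190190 to 8195320), which desaturates phytoene and whose loss bleaches plants, was at 55.1, 56.3 and 58.1 CPM and at 57.8, 57.5 and 59.9 CPM. Its 6 libraries lay close together, with a log2 fold change of 0.05 (SE 0.09, edgeR adjusted p 0.978). The ratio of PSY to PDS per length was 3.35 ± 0.400 in wild-type and 3.38 ± 0.0488 in athb1-1 (SD, n = 3; exact permutation p 0.800, two-sided).

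The cyclases divide the pathway between its branches. LYCB (AT3G10230; chromosome 3, 3164075 to 3166038), which forms beta-rings, was at 68.5, 76.8 and 68.9 CPM in wild-type and at 67.8, 67.9 and 75.1 CPM in athb1-1, with 1 high library in each genotype (log2 fold change −0.02, SE 0.09, edgeR adjusted p 0.993, or 0.03 without wild-type replicate 2). LYCE (AT5G57030; chromosome 5, 23077120 to 23080096), which forms the epsilon-ring of lutein, was at 54.4, 45.8 and 59.8 CPM and at 55.7, 54.9 and 67.1 CPM. Its libraries overlapped, and its log2 fold change of 0.15 (SE 0.12, edgeR adjusted p 0.967) was 0.04 without wild-type replicate 2, its lowest library. The ratio of LYCE to LYCB per length was 0.694 ± 0.130 in wild-type and 0.775 ± 0.0428 in athb1-1 (SD, n = 3; exact permutation p 0.400, two-sided). That ratio, PSY to PDS, BCH1 to BCH2 (p 0.200), BCH1 plus BCH2 to CYP97A3 (p 0.700) and the summed level of the 9 members (p 0.900) were tested by exact permutation as a family of 5, with Benjamini-Hochberg adjusted p of 0.900 for each, and 3 libraries against 3 cannot give a p below 0.1.

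ZEP (AT5G67030; chromosome 5, 26753469 to 26757402) turns zeaxanthin into violaxanthin and is needed for ABA synthesis. It was at 268, 196 and 252 CPM in wild-type and at 222, 228 and 273 CPM in athb1-1. Wild-type replicate 2 was again the lowest library, as it was for PSY, LYCE, BCH2 and CYP97B3, while for LYCB it was the highest. The log2 fold change of ZEP was 0.02 (SE 0.13, edgeR adjusted p 0.998), or −0.12 without that library.

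Of the 9 members other than CYP97B3, all 9 passed the filter on low counts and 0 were called by edgeR over all genes, where 0.0537% were called. At an unadjusted p under 0.05 the count was also 0, against 5.24% of all genes, and DESeq2 called 0. In 0 of the 9 did the genotypes' libraries not overlap, against 11.3% of all genes tested (5.86% higher and 5.49% lower in athb1-1). Their log2 fold changes ran from −0.12 to 0.15 with a median of 0.02, beside a median of 0.01 over all genes. Without wild-type replicate 2 these medians were −0.04 and 0.00. The 95% intervals of the 9, each taken alone, lay within −0.34 and 0.41, and differences inside a gene's interval were not excluded. They are no detection limit for the calls, which were adjusted over all genes tested. In sum the 9 came to 770 ± 68.6 (wild-type) and 782 ± 49.0 CPM (athb1-1) (SD, n = 3). Without wild-type replicate 2, 165 of 18892 genes (0.873%) were called, among them 0 of the 9.

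The rest of the pathway was examined through lists of precursor, carotenoid, cleavage, ABA and regulator genes, 45 genes besides CYP97B3 that include the 9 members. Of these, 41 passed the filter, and 0 were called in either direction by edgeR (0.0537% of all genes) or DESeq2. An unadjusted edgeR p under 0.05 was found for 1 of the 41, against 5.24% of all genes. With so few genes, a count of 0 called is what the share over all genes gives. The 41 had a median log2 fold change of 0.00 (−0.04 without wild-type replicate 2), with 21 positive and 20 negative values. In 2 of the 41 (4.88%) the genotypes did not overlap, against 11.3% of all genes tested.

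The 1 gene with an unadjusted edgeR p under 0.05 was VDE (AT1G08550), the lumenal de-epoxidase that turns violaxanthin back into zeaxanthin in strong light, the reverse of the step of ZEP. It was at 26.8, 22.7 and 26.6 CPM in wild-type and at 19.4, 20.5 and 22.3 CPM in athb1-1, so that every mutant library was below every wild-type library by a small margin. Its log2 fold change was −0.29 (SE 0.11, unadjusted p 0.0195, edgeR adjusted p 0.939), and −0.37 without wild-type replicate 2 (edgeR adjusted p 0.0827). ABA4, needed to form neoxanthin, was at 11.9, 12.1 and 11.9 CPM and at 14.3, 11.9 and 14.2 CPM, with 2 mutant libraries above all of wild-type and 1 at the wild-type level (log2 fold change 0.17, SE 0.12, edgeR adjusted p 0.951). These stood beside CYP97B3 in the list of ring formation, hydroxylation and the xanthophyll cycle, whose other 9 genes had a median of −0.01, or −0.06 without wild-type replicate 2.

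Lycopene synthesis, with its cofactors, had 5 positive and 3 negative values among 8 genes and a median log2 fold change of 0.03, or −0.05 without wild-type replicate 2. Z-ISO, the isomerase of zeta-carotene, was at 16.2, 16.2 and 16.0 CPM in wild-type and at 13.4, 15.5 and 15.2 CPM in athb1-1. The libraries did not overlap, but the log2 fold change of −0.13 (SE 0.11) was not called (edgeR adjusted p 0.971). CRTISO, the isomerase that yields lycopene, was at 17.6 ± 1.02 and 16.2 ± 0.893 CPM (SD, n = 3; log2 fold change −0.13, SE 0.11, edgeR adjusted p 0.971).

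The methylerythritol phosphate (MEP) pathway makes isoprenoid precursors in the plastid, and its 10 listed genes, with isopentenyl diphosphate isomerases and the synthase GGPPS11, ran from −0.08 to 0.07 on the log2 scale, with a median of −0.01. DXR, its reductoisomerase, was at 81.1 ± 3.23 (wild-type) and 85.3 ± 1.88 CPM (athb1-1) (SD, n = 3; log2 fold change 0.07, SE 0.09, edgeR adjusted p 0.973, or 0.04 without wild-type replicate 2). HDR, its last enzyme, was at 602 ± 44.8 and 571 ± 30.3 CPM (SD, n = 3; log2 fold change −0.08, SE 0.10, edgeR adjusted p 0.973, or −0.14 without that library). Both overlapped between genotypes.

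Cleavage of carotenoids yields strigolactones and ABA. Of 5 cleavage and strigolactone genes, 4 were tested, with a median log2 fold change of 0.05 with and without wild-type replicate 2. D27, a carotenoid isomerase of strigolactone synthesis, stood at 0.17 (SE 0.23, edgeR adjusted p 0.973; 0.07 without that library) and the dioxygenase CCD4 at 0.06 (SE 0.10, edgeR adjusted p 0.975). CCD7 (AT2G44990) had 0 counts in all 6 libraries, where 3 counts would be 0.218 to 0.279 CPM. Of 8 ABA synthesis genes, 5 were tested, with a median of 0.03, or −0.06 without wild-type replicate 2. NCED3, the main drought-induced epoxycarotenoid dioxygenase, was at 13.7, 18.7 and 18.2 CPM in wild-type and at 18.9, 17.4 and 22.7 CPM in athb1-1, with overlapping libraries (log2 fold change 0.22, SE 0.14, edgeR adjusted p 0.951). ABA2, a later enzyme of ABA synthesis, stood at 0.13 (SE 0.12, edgeR adjusted p 0.971; 0.20 without that library). NCED6 had 0 counts throughout, and NCED5 and NCED9 were below the filter with at most 7 counts in a library.

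Among 5 known regulators of carotenoid genes the median log2 fold change was −0.01, or −0.12 without wild-type replicate 2. HY5, a bZIP factor that activates PSY in light, was at 19.4 ± 0.845 (wild-type) and 17.7 ± 1.92 CPM (athb1-1) (SD, n = 3; log2 fold change −0.14, SE 0.11, edgeR adjusted p 0.971). PAR1, a cofactor that limits PIF factors, was at 124 ± 19.7 and 134 ± 16.5 CPM (SD, n = 3; log2 fold change 0.12, SE 0.13, edgeR adjusted p 0.971, or 0.21 without that library). Libraries of both overlapped.

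**Figure D4:**
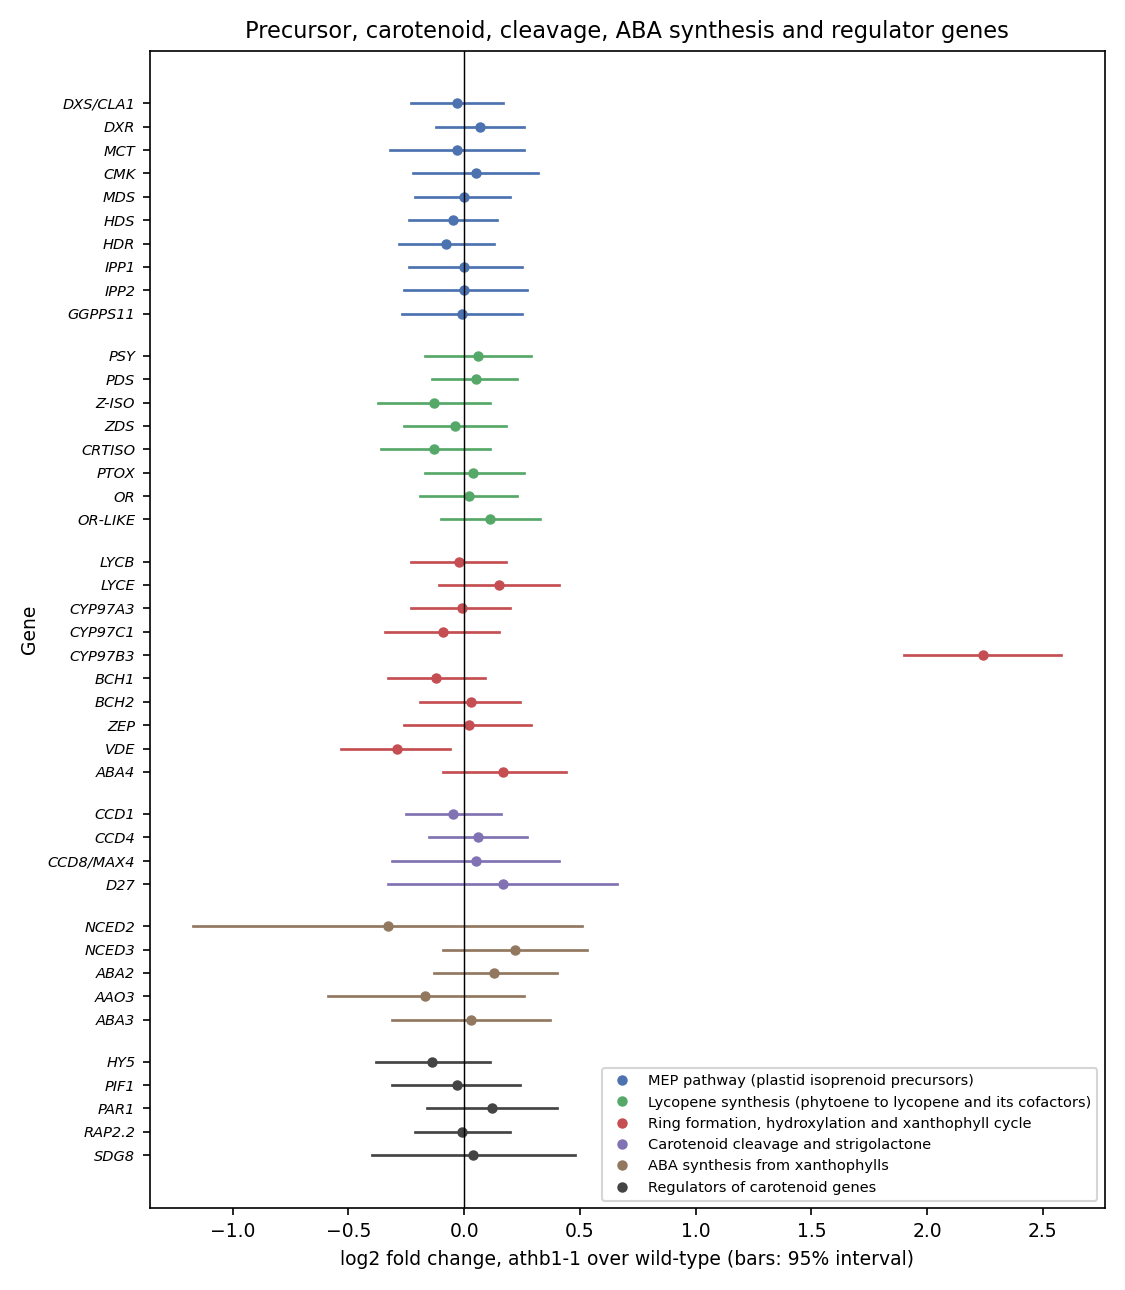
Log2 fold change of athb1-1 over wild-type (horizontal axis) with its 95% interval for the listed genes that passed the filter on low counts (vertical axis), coloured by list. CYP97B3 stands at 2.24 and the other 41 genes between −0.33 (NCED2) and 0.22 (NCED3), with the interval of VDE below 0.

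Neighbouring genes on chromosome 4 were compared next, 5 on each side of CYP97B3 within 16937 bases. Of these 10, 7 passed the filter, 0 were called by edgeR (0.0537% of all genes) or DESeq2, and 0 had an unadjusted edgeR p under 0.05 (5.24% of all genes). Among so few genes, a count of 0 is what these shares give. Their log2 fold changes ran from −0.23 to 0.31, or from −0.39 (FAR1) to 0.42 (AT4G15120) without wild-type replicate 2. On the side of the last exon, AT4G15100 (SCPL30, a carboxypeptidase-like gene on the opposite strand) ends 26 bases away and had 1 count over the 6 libraries. Upstream, AT4G15120 begins 1389 bases away and was at 3.16, 4.18 and 3.44 CPM in wild-type and at 5.01, 4.14 and 4.18 CPM in athb1-1. Its libraries overlapped (log2 fold change 0.31, SE 0.18, edgeR adjusted p 0.947). No annotated gene of TAIR10.1 overlaps CYP97B3.

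Genes whose profile over the 6 libraries was most like that of CYP97B3 lay outside the listed pathway. Likeness was the root mean square difference of mean-centred log2 CPM, among 18052 other genes with a mean of at least 1 CPM, and it favours any gene that is higher in athb1-1 by a similar factor. The nearest was AT5G42770, at 0.35, which was read 9, 9 and 8 times in wild-type and 73, 74 and 68 times in athb1-1. Next came AT3G51760 (0.52), AT1G29020 (0.60), the pseudogene AT5G35935 (0.65) and AT2G20100 (0.65). Their mean levels in wild-type and athb1-1 were 0.770 and 5.44 CPM for AT5G42770, 0.751 and 1.92 CPM for AT3G51760, 0.967 and 2.43 CPM for AT1G29020, 1.20 and 15.1 CPM for AT5G35935, and 2.80 and 5.57 CPM for AT2G20100. AT5G42770, AT3G51760 and AT1G29020 averaged below 1 CPM in wild-type and reached the mean of at least 1 CPM through athb1-1. The 9 other members lay at 1.06 (LYCE) to 1.21 (BCH1), and by that measure the nearest of them, LYCE, was in place 2392. With log2 fold changes from −0.12 to 0.15, these 9 could not rank near a gene at 2.24, so their places add nothing.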

How the data were processed

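RNA sequencing measured transcripts in 3 wild-type and 3 athb1-1 libraries. The submitters' processing notes name TAIR10, TopHat2 2.0.8 and Bowtie2 2.1.0. The deposited values are raw counts, in one file per library for genes and one for exon bins. How reads were counted (program, strandedness, gene models) was not given in the sources used here. Rows that name no gene were left out of the exon files (ambiguous reads 0.943 to 1.01%, empty 0.577 to 0.656%, low quality 8.21 to 10.6%). From the authors' deposited table of log2 fold changes one column was used with its sign turned, and its 6 per-library columns were not used.

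The members and lists were chosen with earlier results of these data known. Genes were tested in all 6 libraries with edgeR 4.0.16 (R 4.3.3), by TMM, the default filterByExpr and the robust quasi-likelihood test with genotype as the only term, and p-values were adjusted by Benjamini-Hochberg over all genes tested. Standard errors were derived from the F statistic and the log2 fold change. Exon usage was tested with diffSpliceDGE. DESeq2 1.42.0 was an alternative. Positions, lengths, names and sequences come from RefSeq TAIR10.1, which held 32835 of the 33602 identifiers. Exon bins are numbered along the chromosome, since bin counts followed exon lengths better in that order in 94.0% of 1525 minus-strand genes. The fit was tested on simulated counts.

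Besides the 10 members, the text names for each list the 2 genes with the smallest p, the nearest neighbour on each side and the 5 nearest profiles. CCD7, NCED2, NCED5, NCED6 and NCED9 were named after their values were seen. Without strand information, reads where PSY, LYCB, CYP97A3 and BCH2 overlap genes on the opposite strand, by 19 to 157 bases, cannot be told apart, nor can those where LYCE overlaps NMT1 by 74 bases on its own strand. Libraries of a genotype differed by more than sampling noise (chi-square per degree of freedom 4.28 to 12.6). The pairs with wild-type replicate 2 were highest, at 10.5 and 12.6, and the remaining pairs of both genotypes were at 4.28 to 4.46.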

Additional observations from a re-analysis of the deposited data

How the results depend on the processing

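CYP97B3 kept its direction in all 12 alternatives, with log2 fold changes from 2.05 to 2.44, both from leaving out 1 wild-type library. This restates the difference that chose the gene and adds no support. The counts of called members (0 of 9) and called pathway genes (0) were the same in all 12, as was the 0 for exon usage in 8. Among so few genes, 0 is what the shares over all genes give. These were 0.0537% in the main fit, 0.873% without wild-type replicate 2 and 0.00781% for exon usage. The number of called genes, 10 over all genes, was 22 by DESeq2, 19 without a filter on low counts and 106 when a trend of fold change with transcript length was removed and wild-type replicate 2 left out. Leaving out 1 library gave 8 to 165, the highest without wild-type replicate 2. The cause was not tested.

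Members with log2 fold changes near 0 changed sign. When the trend with transcript length was removed and wild-type replicate 2 left out, PSY stood at −0.03, LYCB at 0.03, BCH2 at −0.10 and ZEP at −0.07. Leaving out 1 library gave −0.04 to 0.17 for PSY, −0.07 to 0.03 for LYCB, −0.07 to 0.06 for CYP97A3, −0.06 to 0.07 for BCH2 and −0.12 to 0.10 for ZEP. The others kept their sign, with 0.03 to 0.07 for PDS, 0.04 to 0.24 for LYCE, −0.16 to −0.03 for CYP97C1 and −0.19 to −0.08 for BCH1. The lowest adjusted p of the 9 members in any alternative was 0.498 (BCH1).

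Whether replicate numbers pair the libraries is not given by the labels and was not settled by the counts. Deviations of libraries numbered 1, 2 and 3 correlated with their namesakes at −0.05, 0.21 and 0.11 over 18626 genes. The value of 0.21 was the highest of all pairs, and wild-type replicate 3 correlated best with athb1-1 replicate 3. Wild-type replicate 1, in contrast, correlated best with athb1-1 replicate 3 (0.16). With a replicate block, 12 genes were called, 0 of the 9 members, 0 pathway genes and 0 members for exon usage, and CYP97B3 stood at 2.26. Lengths from the union of exons, or without bases shared with other genes (added after seeing the data), left CYP97B3 in place 10 of 10 in wild-type.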

Other observations

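Within CYP97B3 the exons near the 5′ end had higher ratios than those near the 3′ end, a pattern noticed in the data and not tested. Exons 1 to 6 had ratios of athb1-1 to wild-type from 5.32 to 10.3, and exons 7 to 14 from 2.88 to 4.77, with counting intervals that overlap between many of them. Exons 1 to 7 held 40.7, 40.5 and 35.1% of the gene's bin counts in wild-type and 45.5, 45.9 and 50.2% in athb1-1. They rested on 44, 34 and 52 counts in wild-type, and the usage test over all genes did not call CYP97B3 (diffSpliceDGE adjusted p 1.00).

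The same share, of the 5′-most bins against an equal number of 3′-most bins, was computed for the 7 other members with at least 4 bins of their own. It overlapped between genotypes for PSY, PDS, LYCE, CYP97A3 and BCH2. In BCH1 it was 69.7, 69.5 and 66.7% in wild-type and 65.8, 62.1 and 62.6% in athb1-1, and in ZEP 69.2, 67.0 and 68.2% against 66.2, 65.8 and 65.1%, without overlap. How many of all genes do not overlap by this measure was not computed, so these values are a description only.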
